A study of Mus musculus with 2 samples.

Results

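The respiratory chain genes of the nuclear genome were examined in total RNA of the mouse adrenal gland. They were chosen by symbol, as genes named Ndufa, Ndufb, Ndufc, Ndufs or Ndufv with a number, Ndufab1, Sdha to Sdhd, Uqcr, Cyc1, Cox4 to Cox8 or Atp5, with at least 1 transcript annotated as protein-coding. The rule gave 87 genes under 86 symbols, of 55536 annotated genes in the gene table, since Atp5o stands under 2 gene identifiers. Of the 87 genes, 79 are classed here as ubiquitous and 8 as tissue-specific, from what is known of them. The study holds 1 group, adrenal glands from B6CASTF1/J females, an F1 hybrid strain, aged 14 days, with no treatment named in the labels. The group has 2 libraries, called replicate 2 and replicate 1 as in the labels, each made from 300 ng of RNA with its ribosomal RNA depleted and ERCC spike-ins, synthetic RNAs of known amount, added. The labels give both libraries 1 donor identifier and a library description of pooled females, but in replicate 2 the tissue label is that of a single numbered female. The labels therefore leave unclear whether these are separate animals, and SDs over the 2 libraries may hold technical variation only. No test across animals was possible, and a gene is called here only where replicate 2 and replicate 1 differed by more than 1.5-fold.

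The respiratory chain sits in the inner mitochondrial membrane. Complex I takes electrons from NADH and complex II from succinate, complex III passes them to cytochrome c, and complex IV gives them to oxygen. Complexes I, III and IV pump protons, and complex V, the ATP synthase, makes ATP as the protons flow back. Most subunits are encoded in the nucleus and a small set in mitochondrial DNA. Complex IV has several accessory subunits with a form used in most tissues and another used in some, such as heart, skeletal muscle, brown fat or testis. In the adrenal cortex the mitochondria also house the cytochrome P450 enzymes at the first and last steps of corticosterone synthesis.

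The 2 pairs in which the tissue-specific gene stood above its counterpart in both libraries were Cox8b with Cox8a and Cox7a1 with Cox7a2, and their sequences are shown for that reason. Cox8b and Cox7a1 encode the forms of subunits 8 and 7a known from heart, skeletal muscle and brown fat. Coding sequences follow without the stop codon, from GENCODE M21, with capitals at bases that differ from the aligned counterpart or have no partner in it. The forms of subunit 8 matched at 53.0% of 215 aligned positions and those of subunit 7a at 61.6% of 250. Neither pair shared a run of 31 bases, and the longest shared runs were 10 and 12 bases.
Cox8b: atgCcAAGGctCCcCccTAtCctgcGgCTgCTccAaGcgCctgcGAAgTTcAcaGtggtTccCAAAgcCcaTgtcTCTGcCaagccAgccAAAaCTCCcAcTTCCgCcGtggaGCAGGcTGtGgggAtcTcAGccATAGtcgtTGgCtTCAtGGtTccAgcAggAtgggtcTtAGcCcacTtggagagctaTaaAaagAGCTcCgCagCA
Cox8a: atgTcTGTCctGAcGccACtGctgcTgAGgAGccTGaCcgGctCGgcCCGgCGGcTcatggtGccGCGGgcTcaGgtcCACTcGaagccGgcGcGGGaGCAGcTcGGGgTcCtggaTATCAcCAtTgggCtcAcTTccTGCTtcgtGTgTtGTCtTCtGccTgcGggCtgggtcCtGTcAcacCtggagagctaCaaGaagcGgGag
Cox7a1: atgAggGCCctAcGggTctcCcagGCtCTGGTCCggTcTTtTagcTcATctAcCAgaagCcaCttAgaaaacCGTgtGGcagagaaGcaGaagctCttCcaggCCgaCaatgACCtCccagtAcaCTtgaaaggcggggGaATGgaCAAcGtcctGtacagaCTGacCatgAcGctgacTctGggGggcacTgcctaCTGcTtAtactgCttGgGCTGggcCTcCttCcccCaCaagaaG
Cox7a2: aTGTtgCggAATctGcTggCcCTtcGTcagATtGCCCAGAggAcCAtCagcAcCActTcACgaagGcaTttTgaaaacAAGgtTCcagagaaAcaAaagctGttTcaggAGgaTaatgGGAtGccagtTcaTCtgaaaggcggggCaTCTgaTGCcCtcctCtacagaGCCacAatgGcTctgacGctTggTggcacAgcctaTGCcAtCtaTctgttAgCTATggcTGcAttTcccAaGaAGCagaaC
Over all 8 pairs of a tissue-specific gene and its counterpart the match lay between 51.8% and 64.8%, and none shared 31 bases in a row.

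The promoters of these 4 genes, 250 bases before to 50 after the start, are given from RefSeq in GRCm38.p6. They were searched on both strands for 6 motifs, chosen after the promoters had been read. The motifs were the TATA box TATAAA, the ETS motif CCGGAAG, the NRF1 motif TGCGCATGC, the ERR motif TNAAGGTCA, the E-box CAGCTG and the YY1 motif AAGATGGCG. Capitals mark matches. The Cox8b window, chr7:140900397-140900696 on the minus strand, held 1 TATA box and 2 E-boxes and only 2 CG pairs. The Cox8a window, chr19:7217567-7217866 on the minus strand, held 2 ETS motifs and 19 CG pairs. The Cox7a1 window, chr7:30183921-30184220 on the plus strand, and the Cox7a2 window, chr9:79759804-79760103 on the minus strand, held none of the 6 motifs, with 7 and 20 CG pairs.
Cox8b promoter: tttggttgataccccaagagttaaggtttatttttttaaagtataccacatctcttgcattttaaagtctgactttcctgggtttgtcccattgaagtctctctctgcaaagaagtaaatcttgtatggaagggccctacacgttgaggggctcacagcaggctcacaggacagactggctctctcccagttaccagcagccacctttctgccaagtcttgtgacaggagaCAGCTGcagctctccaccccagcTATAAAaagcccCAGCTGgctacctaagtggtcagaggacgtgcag
Cox8a promoter: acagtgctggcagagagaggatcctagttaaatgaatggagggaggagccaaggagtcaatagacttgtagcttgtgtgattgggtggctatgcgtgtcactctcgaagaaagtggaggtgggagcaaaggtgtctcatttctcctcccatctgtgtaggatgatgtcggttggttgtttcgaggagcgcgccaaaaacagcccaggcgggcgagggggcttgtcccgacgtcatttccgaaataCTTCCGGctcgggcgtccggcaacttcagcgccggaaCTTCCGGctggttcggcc
Cox7a1 promoter: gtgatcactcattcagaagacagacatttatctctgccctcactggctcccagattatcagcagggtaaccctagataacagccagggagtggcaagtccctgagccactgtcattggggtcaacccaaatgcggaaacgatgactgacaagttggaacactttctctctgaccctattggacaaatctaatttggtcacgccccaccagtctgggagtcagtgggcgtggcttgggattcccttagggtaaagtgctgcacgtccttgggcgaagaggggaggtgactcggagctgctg
Cox7a2 promoter: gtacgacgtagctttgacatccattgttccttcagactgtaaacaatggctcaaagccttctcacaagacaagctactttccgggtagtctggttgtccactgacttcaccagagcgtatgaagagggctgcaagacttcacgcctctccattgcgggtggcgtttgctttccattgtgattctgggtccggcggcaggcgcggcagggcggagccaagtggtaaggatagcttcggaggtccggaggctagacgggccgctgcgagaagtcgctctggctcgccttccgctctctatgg
Promoters were found for 67 of the 86 symbols, 63 of them ubiquitous. The ETS motif was in 25.4% of ubiquitous genes, against 12.9% of all 17491 protein-coding genes with a window. The YY1 motif was in 11.1% of ubiquitous genes, against 2.14% of all genes, and the NRF1 motif in 7.94%, against 2.23%. The ERR motif was in 4.76% of ubiquitous genes, against 1.19% of all genes. The TATA box was in 7.94% of ubiquitous genes, against 14.8% of all genes, and the E-box in 7.94%, against 17.4%. These shares rest on few of the 63 genes, 16 for ETS, 7 for YY1, 3 for ERR and 5 for each other motif. A gene was counted if any of its windows matched, with 68 windows for the ubiquitous genes and 21262 for all genes. The genes compared were not matched for windows per gene or for CG pairs. Median CG pairs per window were 19 for ubiquitous genes and 13 over all windows, while the 4 tissue-specific windows held 2, 7, 10 and 10. A match describes letters in the window and is no evidence of binding.

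Depth was 33844950 expected counts in replicate 2 and 37586172 in replicate 1, of which the respiratory chain genes took 404501 and 376506. Marker genes differed between the libraries, in lists chosen with earlier results of these data known. All 10 liver markers were past 1.5-fold higher in replicate 2, summing to 19199 TPM against 331 TPM in replicate 1, where TPM, a share of all transcripts, is a level corrected for transcript length. All 10 skeletal muscle markers were past 1.5-fold higher too, summing to 573 TPM in replicate 2 against 26.3 TPM in replicate 1. All 8 adrenal cortex markers were past 1.5-fold lower, summing to 2885 TPM in replicate 2 against 6832 TPM in replicate 1, and so were all 7 chromaffin markers, with 726 and 1582 TPM. Brown fat markers summed to 1413 TPM in replicate 2 against 1332 TPM in replicate 1, with Ucp1, the uncoupling protein of brown fat, at 774 and 659 TPM. Of 8 tested brown fat markers, 3 were past 1.5-fold higher, Ppara, Cidea and Ucp1, and 0 lower. Of all tested genes, 14.4% were called higher and 8.83% lower. The median log2 difference of these markers was 0.55 after TMM scaling, which sets libraries on a common scale by trimming extreme genes. Ppara stood at 1.58, Cidea at 0.68 and Ucp1 at 0.65, while Dio2 and Kcnk3 lay below 0, at -0.27 and -0.26. Which cells the Ppara transcripts came from was not tested, and the liver markers were higher in replicate 2 too. All 7 thymocyte markers were past 1.5-fold lower, with sums of 0.89 TPM in replicate 2 against 36.8 TPM in replicate 1. Pericyte markers summed to 72.5 TPM in replicate 2 against 74.1 TPM in replicate 1. Of 8 testis markers, 8 had 0 counts in replicate 2 and 7 in replicate 1. In such bulk samples, fewer cells of a type and less RNA per cell cannot be told apart.

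Respiratory chain transcripts were abundant. The 87 genes held 1.74% of all TPM in replicate 2 and 1.55% in replicate 1, a mean of 1.64% ± 0.133 (SD, n = 2). Of 22015 protein-coding nuclear genes ranked by mean TPM, the top 50 held 9 of them, the top 100 held 16, the top 500 held 66 and the top 1000 held 78. The median protein-coding gene of at least 1 TPM stood at 8.45 TPM, against a median respiratory chain gene at 158 TPM in replicate 2 against 140.1 TPM in replicate 1. Of the 87 genes, 83 reached 1 TPM in both libraries.

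Complex IV and complex III stood above complexes I, II and V. Median levels of the ubiquitous complex IV genes were 365 TPM in replicate 2 against 333 TPM in replicate 1, and those of complex III genes 278 and 240.3 TPM. Complex II genes stood at 191 TPM in replicate 2 against 162 TPM in replicate 1, complex V genes at 177 and 159 TPM, and complex I genes at 119 and 116 TPM. Complexes II and V did not differ beyond the spread between libraries, and their order turned round in the second transcript table, another quantification of the same libraries, with medians of 221 TPM for complex II and 276 TPM for complex V. Complex IV stayed highest and complex I lowest there, at 593 and 181 TPM. Within complex V the highest gene was 192-fold over the lowest in replicate 2 and 88.9-fold in replicate 1 over 16 genes, the second Atp5o identifier left out. The lowest of these was Atp5g2, whose level depended on the table, and without it the spread was 9.89-fold in replicate 2 and 16.1-fold in replicate 1, near that of complex IV. Within complex II they varied least, by 1.51-fold in replicate 2 and 1.67-fold in replicate 1 over its 4 genes. Complex I spread 5.46-fold and 5.27-fold over 36 genes, complex III 3.30-fold and 3.75-fold over 9, and ubiquitous complex IV 14.3-fold and 15.6-fold over 12.

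**Figure D1:**
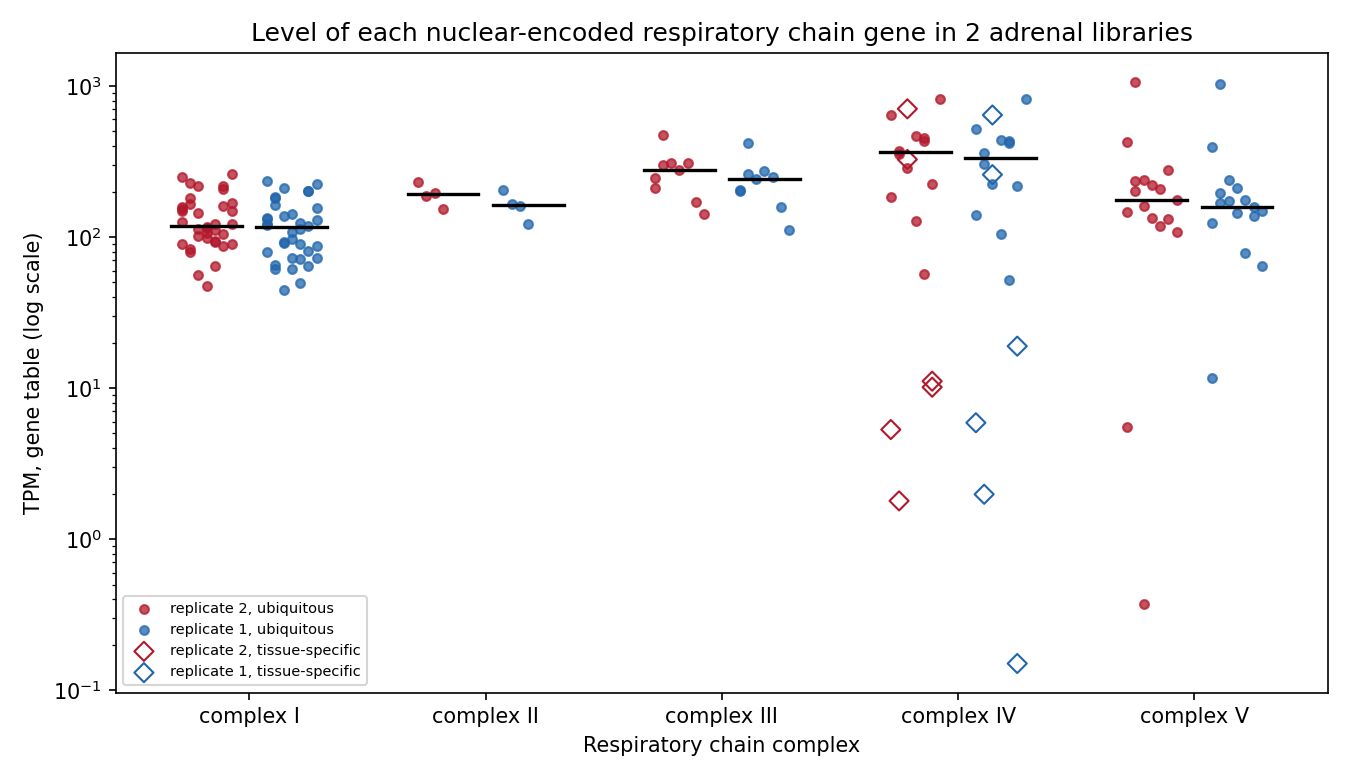
Level of each respiratory chain gene in TPM on a log scale, by complex, with replicate 2 in red left of replicate 1 in blue; filled circles are ubiquitous genes, open diamonds tissue-specific genes, and black lines the median of the ubiquitous genes of that complex in that library. Genes at 0 TPM and Atp5s, which is no subunit, are not drawn; the complex IV medians, 365 and 333 TPM, lie highest, and the lowest complex V points are Atp5g2, at 5.53 and 11.6 TPM, and the second Atp5o identifier, at 0.37 TPM in replicate 2.

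The highest gene was Atp5b, the catalytic beta subunit of the ATP synthase, at 1061 TPM in replicate 2 against 1028 TPM in replicate 1. Its partner in the catalytic head, Atp5a1, stood at 426 and 394 TPM. Of the other highest 10 genes, 7 belong to complex IV. Among these, Cox6b1 had 816 TPM in replicate 2 against 815 TPM in replicate 1, and Cox4i1, the ubiquitous form of subunit 4, had 647 and 518 TPM. Cox5b had 466 and 440.0 TPM in replicate 2 and replicate 1, Cox6a1 434 and 430 TPM, and Cox8a 373 and 361 TPM. Ndufa4, named for complex I but placed here with complex IV because its protein is a subunit of that complex, had 452 TPM in replicate 2 against 422 TPM in replicate 1. The remaining gene, Uqcrq, a small subunit of complex III, had 471 TPM in replicate 2 against 417 TPM in replicate 1. The 5 ubiquitous genes of lowest mean level were the second Atp5o identifier, Atp5s, Atp5g2, Ndufb3 and Cox7a2l. Atp5s, whose product is no subunit of the enzyme, had 4.51 TPM in replicate 2 against 4.25 TPM in replicate 1. Ndufb3, an accessory subunit of complex I, had 55.8 and 44.8 TPM, and Cox7a2l, which takes part in joining complexes III and IV, had 57.2 and 52.2 TPM.

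Of the 8 tissue-specific genes, Cox8b and Cox7a1 were among the abundant respiratory chain genes and the other 6 were at or under 18.9 TPM. Cox8b, on chromosome 7 from 140898945 to 140900446, had 706 TPM in replicate 2 against 642 TPM in replicate 1, and was the third highest of all 87 genes. Its counterpart Cox8a, on chromosome 19 from 7215153 to 7217616, had 373 and 361 TPM, so that Cox8b was higher in both libraries. The ratio of Cox8b to Cox8a was 1.89 in replicate 2 and 1.78 in replicate 1, or 0.87 ± 0.06 on the log2 scale (SD, n = 2). In the second transcript table this ratio was 1.92 in replicate 2 and 1.95 in replicate 1. The levels rest on a short transcript, 360 bases for Cox8b against 550 for Cox8a, and before correction for length the mean log2 ratio of the counts was 0.08. In the second table the uncorrected counts had the other order, with 3346 for Cox8b and 4539 for Cox8a in replicate 2, and 3562 and 5306 in replicate 1.

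Cox7a1, on chromosome 7 from 30184144 to 30186078, had 326 TPM in replicate 2 against 259 TPM in replicate 1. Cox7a2, on chromosome 9 from 79755361 to 79759878, had 127 and 105 TPM, below Cox7a1 in both libraries. The ratio of Cox7a1 to Cox7a2 was 2.56 in replicate 2 and 2.46 in replicate 1, or 1.33 ± 0.04 on the log2 scale (SD, n = 2). The second table gave 1.53 in replicate 2 and 1.67 in replicate 1, although its uncorrected counts were 1747 for Cox7a1 and 2260 for Cox7a2 in replicate 2, and 1645 and 2181 in replicate 1. There Cox7a2 had 353 TPM in replicate 2 against 259 TPM in replicate 1, and 61.8% and 52.1% of its level was given to the processed transcript Cox7a2-203, which held 7.8% and 2.9% in the first transcript table. Both Cox8b and Cox7a1 differed little between libraries beside the muscle markers. In TPM, the folds of replicate 2 over replicate 1 were 1.10 for Cox8b and 1.26 for Cox7a1, and 21.8 for the sum of the 10 muscle markers. Brown fat markers were mixed on the same scale. Ucp1 stood at 1.17, Cidea at 1.20 and the sum of all 10 at 1.06, while Dio2 and Kcnk3 lay at 0.62 and 0.57. Kcnk3, with 142 TPM in replicate 2 against 249 TPM in replicate 1, weighed in the sum of all 10. Which cells it came from was not tested. Ppara had 31.7 TPM in replicate 2 against 12.6 TPM in replicate 1, and its cells of origin were not tested either. The counterparts Cox8a and Cox7a2, at 1.03 and 1.21, and the median respiratory chain gene, at 1.13, were near Cox8b and Cox7a1 too. After TMM scaling the folds were 1.47 for Cox8b and 1.69 for Cox7a1. Brown fat markers then ran from 0.83 for Dio2 and 0.84 for Kcnk3 to 2.99 for Ppara, with 1.57 for Ucp1 and 1.48 for Cpt1b.

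Cox6a2, the heart and muscle form of subunit 6a, behaved otherwise. It had 194 counts or 10.1 TPM in replicate 2, and 3 counts or 0.15 TPM in replicate 1. The TMM-scaled fold was 90.9, with a 95% Clopper-Pearson interval from 30.6 to 444 that covers counting error only. Its counterpart Cox6a1 had 434 TPM in replicate 2 against 430 TPM in replicate 1 and was 42.8-fold over Cox6a2 in replicate 2. The muscle markers Acta1, skeletal actin, with 7654 counts in replicate 2 and 314 in replicate 1, and Ckm, muscle creatine kinase, with 2108 and 129 counts, were likewise higher in replicate 2. What the difference in muscle markers contributed to Cox6a2 was not tested.

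The remaining tissue-specific genes were low. Ndufa4l2, a relative of Ndufa4 known to be induced by low oxygen, had 11.1 TPM in replicate 2 against 18.9 TPM in replicate 1, against 452 and 422 TPM for Ndufa4. Cox6b2, the testis form of subunit 6b, had 5.31 TPM in replicate 2 against 5.89 TPM in replicate 1, and Cox6b1 was 154-fold and 138-fold over it. Cox4i2, the form of subunit 4 known from lung and low oxygen, had 1.79 and 1.98 TPM, and Cox4i1 was 362-fold and 262-fold over it. These 3 genes were detected in both libraries far under their counterparts. Cox7b2 and Cox8c, known from testis, had 0 counts in both libraries, which allows up to 3 counts, or 8.86e-06% of the counts in replicate 2 and 7.98e-06% in replicate 1.

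**Figure D2:**
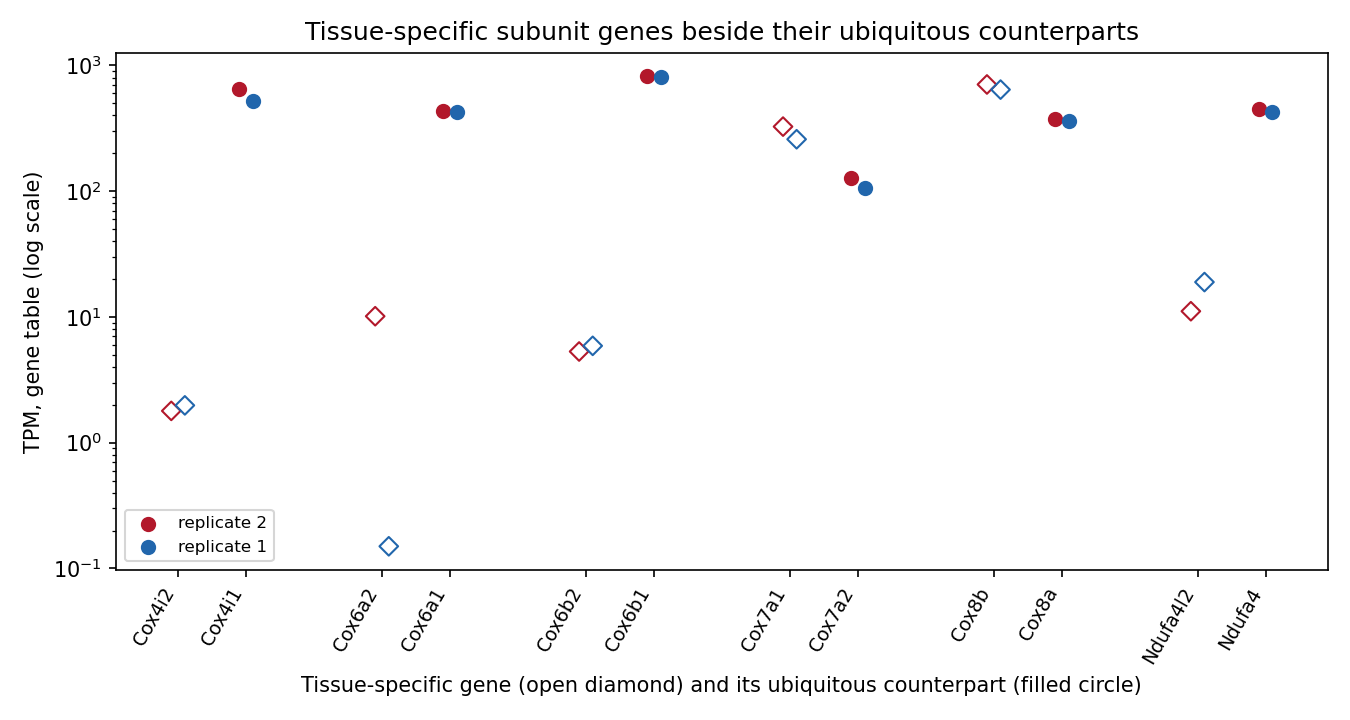
Level in TPM on a log scale of 6 tissue-specific genes (open diamonds), each left of its ubiquitous counterpart (filled circles), in replicate 2 (red) and replicate 1 (blue). Cox7a1 and Cox8b lie above their counterparts in both libraries, the other 4 below, and Cox6a2 differs most between libraries at 10.1 and 0.15 TPM; Cox7b2 and Cox8c, at 0 counts, are not drawn.

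Between the libraries, the respiratory chain genes were shifted towards replicate 2 as a group. After TMM scaling, the 84 genes that averaged 20 counts or more were compared. Of these, 44 were past 1.5-fold higher in replicate 2, where 14.4% of all 16155 tested genes were called, and 1 was past 1.5-fold lower, where 8.83% of all genes were. The other 39 lay between. Their median log2 difference was 0.60 (quartiles 0.46 to 0.74), against -0.003 over all tested genes, and 82 of 84 lay above 0. The shift was alike in the ubiquitous genes of each complex, with medians of 0.58 in complex I, 0.64 in complex II, 0.66 in complex III, 0.59 in complex IV and 0.60 in complex V.

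The number of calls depended on the scaling, and the median respiratory chain gene, at 0.60 with TMM, lay close to the threshold of 0.58. With spike-in scaling 6 genes were past 1.5-fold higher and with total counts 4. Both scalings moved the median of all genes, to -0.28 and -0.34. A change of scaling moves all genes by nearly the same amount, so it cannot test the distance to the median of all genes. That distance was 0.60 with spike-in scaling and with total counts, and 0.61 with TMM. In TPM, 71 of the 84 genes were higher in replicate 2, with a median fold of 1.13, and 4 were past 1.5-fold higher on the log2(TPM + 1) scale. Only 3 genes, Cox6a2, Atp5k and Atp5g1, were past 2-fold after TMM scaling. The shares of all tested genes, 14.4% higher and 8.83% lower, hold for TMM at 1.5-fold only. Counts under the other settings stand here without such a share.

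The genes past 1.5-fold came from all complexes. In complex I they were 18 of 36, Ndufb10, Ndufa8, Ndufa2, Ndufa13, Ndufa1, Ndufv1, Ndufb6, Ndufa9, Ndufs5, Ndufb9, Ndufb3, Ndufb2, Ndufs6, Ndufb7, Ndufa3, Ndufs3, Ndufb8 and Ndufs7. The redox-active or core subunits among them were Ndufv1, Ndufs3 and Ndufs7, which made 3 of the 7 core subunits, and the other 15 were accessory. Ndufb10 was highest, with a log2 difference of 0.91, from 2533 counts in replicate 2 and 1894 in replicate 1. In complex II Sdhb, Sdhc and Sdhd were past the threshold, and Sdha, the flavoprotein that binds succinate, was not, at 0.53. In complex III Uqcr11, Uqcrfs1, Cyc1, Uqcrh, Uqcrc1 and Uqcr10 were past it. Both redox proteins counted here, the iron-sulfur protein Uqcrfs1 at 0.78 and cytochrome c1, Cyc1, at 0.73, were among them. In complex IV, besides Cox6a2 and Cox7a1, they were Cox7c, Cox5a, Cox4i1, Cox7a2, Cox6c and Cox7b, with log2 differences between 0.64 and 0.82. In complex V they were Atp5k, Atp5g1, Atp5e, Atp5g3, Atp5o, Atp5mpl, Atp5j2, Atp5b and Atp5l. Atp5k, the membrane subunit e, had 280 TPM in replicate 2 against 159 TPM in replicate 1, a log2 difference of 1.23. Atp5e, the epsilon subunit of the central stalk, had 119 TPM in replicate 2 against 78.2 TPM in replicate 1, a log2 difference of 0.99.

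Respiratory chain genes are short and abundant, so genes alike in these respects were set beside them, a choice made after the values were seen. Among genes of at least 50 TPM and under 750 bases, the 50 respiratory chain genes had a median log2 difference of 0.63 and the 157 other protein-coding genes 0.23. From 750 to 1500 bases, the medians were 0.60 for 23 respiratory chain genes and 0.15 for 281 others. Over 1500 bases, they were 0.56 for 5 respiratory chain genes and 0.05 for 444 others. Past 1.5-fold higher were 58.0% of the shortest respiratory chain genes, against 14.0% of the others of that length and level. From 750 to 1500 bases the shares were 56.5% and 22.4%, and over 1500 bases 1 of 5 respiratory chain genes was called, against 89 of 444 others, about the same share. Liver, muscle, adrenal and brown fat markers differed between the libraries too. The brown fat markers had the median closest to that of the respiratory chain genes among the marker lists, 0.55 beside 0.60. They ran from -0.27 for Dio2 to 1.58 for Ppara, with quartiles of 0.32 and 0.66. Below 0 lay 2 of the 8 tested brown fat markers, a far larger share than the 2 of 84 respiratory chain genes. The part of length, level and these markers in the difference was not tested.

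Other genes of the pathway were shifted less. Of 53 assembly factors, 11 were past 1.5-fold higher and 0 lower, with a median log2 difference of 0.42. That is 20.8% called higher, near the 14.4% of all tested genes. Of the 53, however, 48 lay above 0, and their median exceeded the upper quartile of all tested genes, 0.30. The largest differences among assembly factors of complex I were those of Ndufaf6 at 0.87, Timmdc1 at 0.73 and Foxred1 at 0.65. Those of complex IV were Sco2, a copper chaperone, at 0.96, then Pet117, Cox17, Cox11 and Coa3 at 0.68, 0.65, 0.63 and 0.62, with Cmc1 past the threshold as well. Fmc1 of complex V stood at 0.83 and Sdhaf4 of complex II at 0.72, and of 6 complex III factors 0 were called. Beside the same 14.4%, among 12 tested genes of the mobile carriers, cytochrome c and the enzymes that make coenzyme Q, 3 were past 1.5-fold higher, Coq8a at 0.93, Coq7 at 0.68 and Coq5 at 0.62. Cytochrome c itself, Cycs, was at 0.36, with 27.8 TPM in replicate 2 against 29.0 TPM in replicate 1.

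The 13 subunits encoded in mitochondrial DNA did not share the shift. Their median log2 difference was -0.02, on the same scale as the 0.60 of the nuclear genes, and 0 of 13 were past 1.5-fold in either direction. They held 9.47% of TPM in replicate 2 and 12.9% in replicate 1, which is 5.45-fold and 8.31-fold the summed TPM of the nuclear genes. Single mitochondrial genes ranged from 989 TPM to 16520 TPM in replicate 2 and from 1112 TPM to 21737 TPM in replicate 1, apart from mt-Co2, listed at 135 and 127 TPM. Nuclear copies of mitochondrial genes can share reads with them, so these levels are uncertain.

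**Figure D3:**
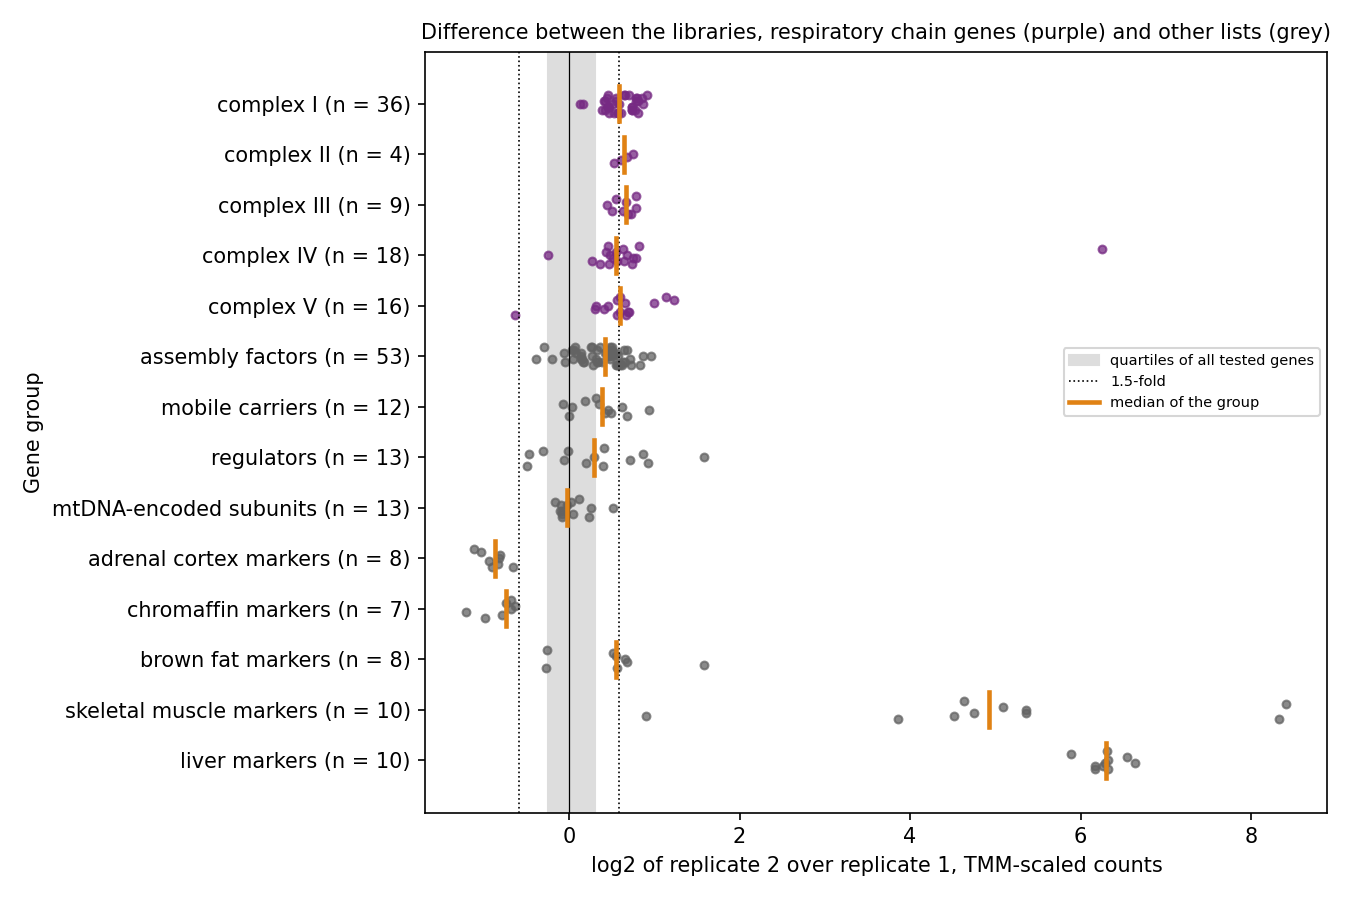
Log2 of replicate 2 over replicate 1 (TMM-scaled counts) for each respiratory chain gene by complex (purple) and for other lists (grey), for genes that average 20 counts or more; orange lines are medians, the grey band holds the middle of all tested genes from the lower to the upper quartile, and dotted lines mark 1.5-fold. Complexes I to V centre between 0.56 and 0.66, with Cox6a2 far to the right at 6.25 and Atp5g2 lowest at -0.64, while mitochondrially encoded subunits centre at -0.02.

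The c subunit of the ATP synthase, which forms the rotating ring, is made from Atp5g1, Atp5g2 and Atp5g3, genes known to give the same mature protein. Their coding sequences matched at 67.4% to 68.9% of aligned positions and shared no run of 31 bases. Atp5g3 was highest, with 203 TPM in replicate 2 against 167 TPM in replicate 1. Atp5g1 had 107 TPM in replicate 2 against 63.9 TPM in replicate 1, a log2 difference of 1.14, and was past 2-fold. Atp5g2 had 5.53 TPM in replicate 2 against 11.6 TPM in replicate 1 in the gene table, with a log2 difference of -0.64, the lowest of all 84. In the second transcript table Atp5g2 had 184 TPM in replicate 2 against 222 TPM in replicate 1, and its log2 difference was 0.06. The order of these genes and the direction for Atp5g2 therefore depended on the table.

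The tables differed in how counts were divided between Atp5g2 and a pseudogene, and which division is right was not tested. Atp5g2 had 2101 counts in replicate 2 and 3042 in replicate 1 in the second table, against 114 and 250 in the gene table. Gm10175, annotated as a transcribed processed pseudogene, had 0 counts in both libraries in the second table, against 2215 in replicate 2 and 2823 in replicate 1 in the gene table. A search for genes sharing at least 100 words of 31 bases with a member's protein-coding transcripts, added after the values were seen, found such partners for 25 of the 87 genes, and for 20 of them a pseudogene. Pseudogenes took more than 10% of the joint counts for 1 gene in the second table, against 8 in the gene table. That 1 gene, Ndufab1, went the other way, with 24.0% in the second table against 0.83% in the gene table.

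The most affected after Atp5g2 were Ndufb4 and Cox7c. For Ndufb4, an accessory subunit of complex I, the second table gave 1331 counts in replicate 2 and 2026 in replicate 1, against 821 and 1030 in the gene table. Its processed pseudogene Ndufb4c had 0 counts in the second table, against 1076 in replicate 2 and 1243 in replicate 1 in the gene table. For Cox7c, a small subunit of complex IV, the second table gave 4241 counts in replicate 2 and 4143 in replicate 1, against 2607 and 2075 in the gene table. Its pseudogenes Gm12338 and Gm10012 had 1 and 1.8 counts together in the second table, against 2246 in replicate 2 and 2220 in replicate 1 in the gene table. Cox7c was past 1.5-fold between libraries in the gene table, and its level there holds only part of the joint counts. Pseudogenes took 28.7% of the joint counts for Atp5l, 27.1% for Ndufs5, 21.6% for Cox7a2l, 13.8% for Atp5h and 13.1% for Ndufa12 in the gene table. Levels of these genes are uncertain for that reason.

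**Figure D4:**
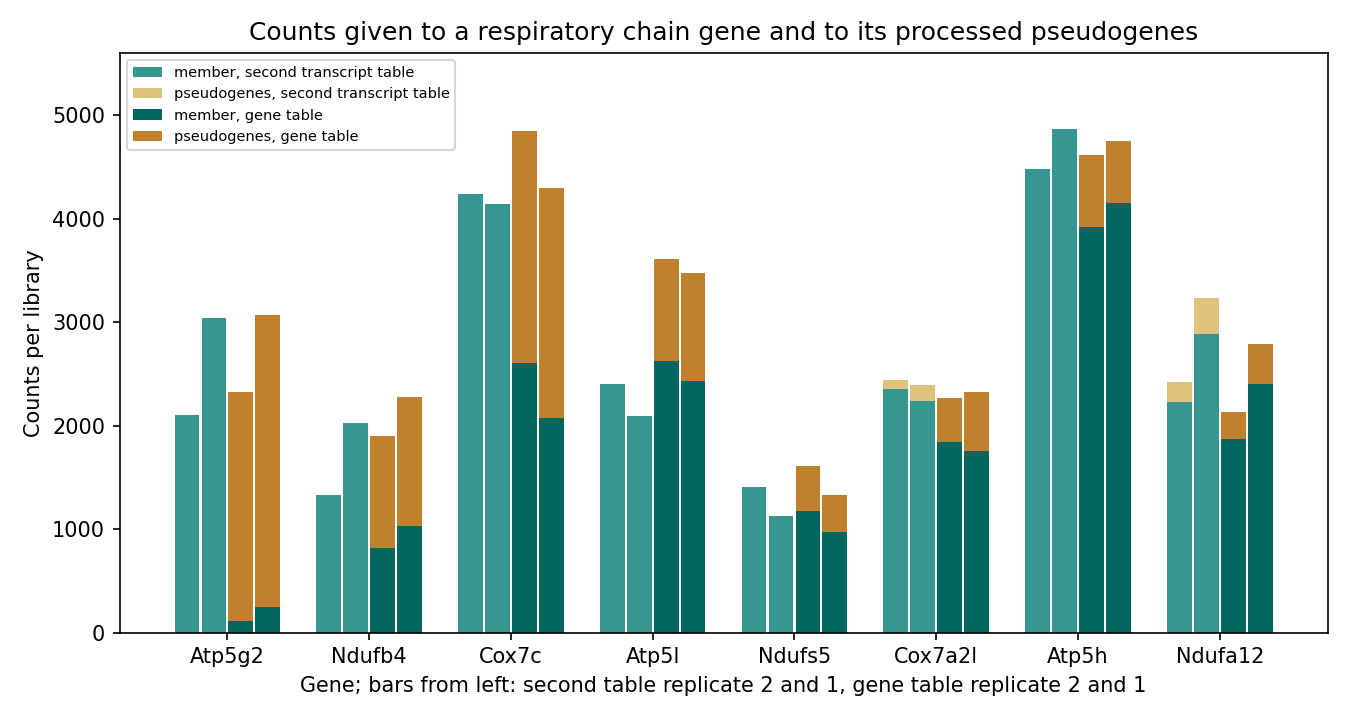
Counts per library given to 8 respiratory chain genes (green) and to their processed pseudogenes (tan or brown, stacked on top); within each gene the bars from the left are the second transcript table for replicate 2 and replicate 1 and the gene table for replicate 2 and replicate 1. For Atp5g2 nearly the whole bar is pseudogene in the gene table, 2215 and 2823 counts, and none of it is in the second table.

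Over all 79 respiratory chain genes of at least 10 TPM, the second table stood above the gene table by a median of 0.68 on the log2(TPM + 1) scale, against 0.50 over all 5942 genes of that level. Genes furthest above were Ndufb4 at 2.28, Cox7c at 1.91, Atp5e at 1.73, Atp5h at 1.43 and Cox7a2 at 1.38. Atp5g2, whose mean level in the gene table was under 10 TPM, was not in this set. Furthest below were Sdhc at -0.20, Ndufa10 at -0.18, Cox6b1 at -0.17, Atp5k at -0.09 and Ndufa1 at -0.06. Relative to the median gene, the respiratory chain genes were 0.18 higher in the second table.

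Not all of a gene's level was given to transcripts annotated as protein-coding. For 21 of the 87 genes less than 80% of TPM, as the mean of the libraries, was in such transcripts. The lowest share was that of Ndufa3, an accessory subunit of complex I, at 11.0%. Most of its level, 89.3% in replicate 2 and 86.8% in replicate 1, was given to Ndufa3-204, a transcript of 343 bases annotated for nonsense-mediated decay. Ndufs4 held 13.8% in protein-coding transcripts, Ndufa10 14.9% and Atp5j 19.6%. For Atp5j, a stalk subunit of the ATP synthase, the retained-intron transcript Atp5j-208 took 75.3% in replicate 2 and 74.9% in replicate 1. The others were Ndufb4, Ndufc1, Ndufab1, Ndufa5, Cox7b, Cox5b, Ndufs7, Cox6b1, Atp5f1, Cyc1, Ndufs3, Ndufb8, Ndufv1, Atp5b, Ndufs6, Ndufa4l2 and Atp5h, with shares of up to 79.5%. The tables differed in this split. Ndufa10-201, the protein-coding transcript of Ndufa10, took 57.9% in replicate 2 and 60.8% in replicate 1 in the second table, against 15.7% and 14.1% in the first transcript table. Atp5k-203, a retained-intron transcript, took 99.7% and 97.7% of Atp5k in the second table, against 1.0% and 1.6% in the first transcript table.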

How the data were processed

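Total RNA-seq of 2 adrenal libraries was analysed. Expected counts and TPM were deposited in a gene table and a first transcript table, per the file headers, and that deposited transcript table also gives each transcript's percent of its gene's TPM. Per the file headers, estimated counts with their TPM make up a second transcript table. Per the text deposited with the samples, the assembly is mm10 with GENCODE M21; tools and strand use were not given in the sources used here. Expected counts were rounded and scaled with TMM (edgeR 4.0.16, R 4.3.3); DESeq2 1.42.0 size factors, ERCC spike-ins and total counts were alternatives. Spike-in entries, which name no gene, took 0.322% of counts in replicate 2 and 0.337% in replicate 1. Differences (log2, replicate 2 over replicate 1, prior count 0.5) were taken for nuclear genes averaging 20 counts or more and called past 1.5-fold; with 1 library on each side no p-value was computed. Intervals and floors (3 counts) cover counting error only; reads carry no molecular identifiers. Tables were compared as log2(TPM + 1) for genes of at least 10 TPM.

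Genes were named by rule: tissue-specific genes with counterparts, the 10 highest and 5 lowest ubiquitous genes, all past 1.5-fold, the 5 per direction with the largest table difference, c-ring genes, those under 80% in protein-coding transcripts, and up to 5 called genes of each other list. The genes and lists were chosen with earlier results of these data known. The partner search, motifs, length classes and the choice of coding sequence (the annotation's principal transcript) were chosen after values were seen. Other alternatives were pseudocounts, filters, rescaled TPM, protein-coding transcripts only and leaving out each replicate.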

Additional observations from a re-analysis of the deposited data

How the results depend on the processing

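The calls between libraries depended on the scaling. The shares of all tested genes called, 14.4% higher and 8.83% lower, are those of TMM at 1.5-fold. The counts of the other settings have no such share beside them. Against 44 genes past 1.5-fold higher and 1 lower with TMM, there were 44 and 1 with DESeq2 size factors, 6 and 1 with spike-ins, 4 and 2 with total counts, 4 and 2 on the log2(TPM + 1) scale, 47 and 0 in the second table, and 3 and 0 at 2-fold. The median difference of 0.60 became 0.33 with spike-ins, 0.26 with total counts and 0.17 on the log2(TPM + 1) scale. Relative to the median of all genes it was 0.48 to 0.61 over the 10 settings run, with the 0.48 on the log2(TPM + 1) scale. A change of scaling alone leaves this distance nearly fixed, so those settings do not test it. Of the 45 called genes, 38 were under the threshold with spike-ins, 40 with total counts, 40 on the log2(TPM + 1) scale and 3 in the second table (Ndufs6, Cox7b and Atp5g2), with the direction kept except for Atp5g2, which turned to 0.055 in the second table. Filters, the prior count and leaving out tissue-specific genes moved neither count by more than 1.5 times.

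The share of TPM, 1.64% in the mean and 1.55% to 1.74% without either replicate, was 2.72% in the second table, 5.78% of protein-coding nuclear TPM and 1.37% in protein-coding transcripts only. Median TPM in the second table was 181, 221, 436, 593 and 276 for complexes I to V. Over protein-coding nuclear genes it was 413, 622, 912, 1227 and 591. With protein-coding transcripts only, complex I stood at 87.3 and complex IV at 291; averaging log2(TPM + 1) gave 285 for complex IV and 119 for complex V.

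On the log2 scale, Cox8b to Cox8a was 0.96 in the second table and 0.085 as a ratio of counts. Cox7a1 to Cox7a2 was 0.68 in the second table, 0.44 as a ratio of counts and 1.42 in protein-coding transcripts. Cox6b2 to Cox6b1, -7.19 as reported, was -6.95 with a pseudocount of 1, -6.30 in the second table, -6.62 as a ratio of counts and -6.52 in protein-coding transcripts. Cox4i2 to Cox4i1 was -7.65 with a pseudocount of 1, against -8.27, and Ndufa4l2 to Ndufa4 was -4.02 as a ratio of counts, against -4.91. The median table difference was 0.18 relative to the median gene. Where a scaling or a table moved a value, the cause was not tested beyond the shift of the median gene.

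No paired analysis was possible because the 2 libraries form a single group. Leaving out a library leaves no difference between libraries, so this alternative was run for levels, ratios and the table difference only. Depth limits Cox6a2 in replicate 1, with 3 counts, and Cox7b2 and Cox8c, with 0.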

Other observations

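Among 13 tested regulators of respiratory chain genes, 4 were past 1.5-fold higher in replicate 2 after TMM scaling, with a median log2 difference of 0.29, where 14.4% of all tested genes were called higher. They were Ppara, a nuclear receptor of fatty acid oxidation that is also among the brown fat markers used here, at 1.58, the coactivators Ppargc1a at 0.92 and Ppargc1b at 0.71, and the nuclear receptor Esrra at 0.87. Ppara had 31.7 TPM in replicate 2 against 12.6 TPM in replicate 1. Nrf1, a transcription factor of nuclear respiratory genes, was at -0.31, with 4.84 TPM in replicate 2 against 8.24 TPM in replicate 1, and Pprc1 and Gabpb1 were at -0.48 and -0.50, all within 1.5-fold. Tfam, which packs and transcribes mitochondrial DNA, was at 0.40. Which cells the Ppara transcripts came from was not tested, and the liver markers were higher in replicate 2 too.

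Ndufv3, a complex I subunit with a short and a long form, was mostly the short form. Ndufv3-202, with 312 coding bases, held 80.1% of the gene's TPM in replicate 2 and 78.4% in replicate 1, and Ndufv3-201, with 1404 coding bases, held 18.6% and 20.2%. The second table gave the short form 83.1% and 80.8%. For Atp5c1, the gamma subunit of the ATP synthase, the transcript split depended on the table. Atp5c1-201 held 22.7% in replicate 2 and 22.5% in replicate 1 in the second table, against 50.5% and 51.3% in the first transcript table.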
